A study of Mus musculus with 8 samples.

Results

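Genes of the NRF2 antioxidant response, 10 in number, were followed by symbol through a table of 35976 mouse genes: Nfe2l2, Keap1, Nqo1, Hmox1, Gclc, Gclm, Srxn1, Txnrd1, Slc7a11 and Gsr. All 10 were listed, each by 1 symbol, and all 10 passed the filter on low values that left 18059 genes for testing. The libraries were made from poly(A) RNA of whole mouse kidneys at postnatal day 3, from animals with raised YAP activity in the distal nephron (YAP; labelled genotype Slc12a3 Cre/+; C1 YAP/+) and from controls (Ctrl; Slc12a3 Cre/+; C1 +/+). Each genotype had 4 libraries, 2 male and 2 female, numbered 1 and 2 within each sex. Cre is driven by Slc12a3, which encodes the thiazide-sensitive salt carrier found in the distal convoluted tubule, and is present in both genotypes. What C1 stands for, and whether libraries of a group came from separate animals, is not stated in the labels. Whole kidney holds every nephron segment, so in these bulk samples fewer cells of a type and less RNA per cell cannot be told apart.

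NRF2, the protein of Nfe2l2, is a transcription factor that is degraded under resting conditions because KEAP1 presents it to a ubiquitin ligase. Oxidants and electrophiles modify KEAP1, NRF2 then accumulates, pairs with a small MAF protein and binds antioxidant response elements in front of genes for glutathione synthesis, thioredoxin recycling, quinone reduction and haem breakdown. In the kidney this response is best known from ischaemic and toxic tubular injury. Because NRF2 is controlled mainly through its stability, its mRNA is not a measure of its activity.

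Levels are given as RPKM, a read number set per kilobase of a gene and per 1e6 reads, divided by a library scaling factor and called scaled RPKM, with means ± SD over 4 libraries per genotype. Depth differed by replicate number, with totals, in units of 1e6 reads, of 78.2 to 87.1 for libraries numbered 1 and of 22.8 to 25.2 for those numbered 2, and each depth class held 1 library of every sex and genotype. A fit on the 4 libraries of 1 depth class has 1 residual degree of freedom. Its p-values therefore lean on variance shared across genes and say little about the spread of a single gene. The first principal component carried 61.7% of the variance of the tested genes. Yap1 itself averaged 35.5 ± 0.789 scaled RPKM in YAP and 35.5 ± 3.74 in Ctrl kidneys (log2 difference 0.01, SE 0.09; limma, adjusted p = 0.967). Whether transgene reads would count on Yap1 is not known, so its level does not check the labels. Kidneys of both genotypes also differed in cell markers, where 13.2% of all genes tested were higher and 13.0% lower in YAP. All 10 macrophage markers rose, with a summed level of 211 to 243 scaled RPKM in YAP against 57.8 to 71.8 in Ctrl libraries; of 12 proximal tubule markers 11 fell, with sums of 423 to 515 against 1656 to 1804; and of 10 tubular injury markers 8 rose and 1 fell, with sums of 4166 to 5330 against 801 to 957. Of 8 distal convoluted tubule markers, 6 fell and 1 rose (39.8 to 69.8 in YAP against 163 to 209 in Ctrl), and no marker of any list was at 0 in all libraries. The part of these markers in the results below was not tested.

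Of the 10 genes, 4 rose in YAP kidneys, Txnrd1, Hmox1, Gclc and Srxn1, none fell, and 6 did not pass an adjusted p of 0.05. Among all 18059 genes tested, 26.2% passed in either direction, 13.2% as higher and 13.0% as lower in YAP. For the same 4 genes every YAP library lay above every Ctrl library, a separation seen for 15.8% of all genes. The median log2 difference of the 10 was 0.33, beside 0.006 over all tested genes. The summed level of the 10 was 272 to 372 scaled RPKM in YAP libraries and 223 to 253 in Ctrl libraries. The 4 that rose serve thioredoxin recycling, peroxiredoxin repair, haem breakdown and glutathione synthesis; the regulator, its inhibitor, Gclm, Nqo1, Slc7a11 and Gsr did not pass.

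**Figure D1:**
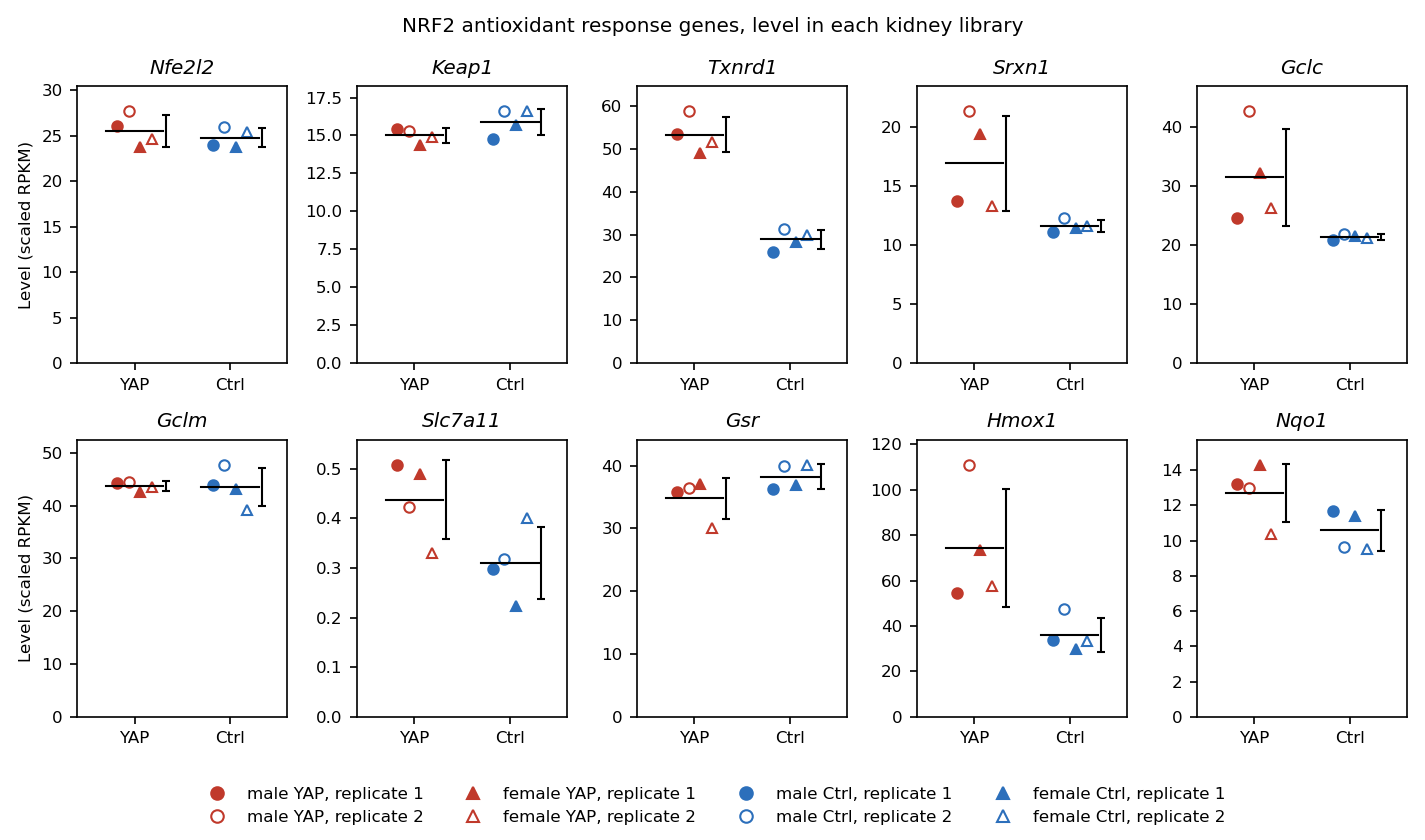
Scaled RPKM of each of the 10 genes in every library, 1 panel per gene with its own linear axis starting at 0; YAP libraries stand left of Ctrl libraries, symbols mark sex and replicate number, horizontal lines mark the mean and error bars the SD over 4 libraries. Txnrd1, Hmox1, Gclc and Srxn1 have all 4 YAP libraries above all 4 Ctrl libraries.

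Neither the regulator nor its inhibitor passed the test. Nfe2l2 (chr2:75675513-75704641, minus strand, GENCODE M21 on GRCm38) was at 26.1 and 27.7 scaled RPKM in male YAP, 23.8 and 24.6 in female YAP, 24.0 and 26.0 in male Ctrl and 23.8 and 25.4 in female Ctrl kidneys. The genotypes overlapped, and the fold was 1.03 with a 95% interval of 0.923 to 1.15 (limma, adjusted p = 0.717). Keap1 (chr9:21229730-21239361, minus strand) had 15.4 and 15.3 scaled RPKM in male YAP and 14.4 and 14.9 in female YAP kidneys, against 14.8 and 16.6 in male Ctrl and 15.7 and 16.6 in female Ctrl kidneys. These groups overlapped too, with a fold of 0.943 and an interval of 0.846 to 1.05 (limma, adjusted p = 0.415). Keap1 shares 510 exon bases with the antisense transcript Gm16754, and reads there cannot be assigned without the strand setting, which is not given in the sources used here.

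Txnrd1 encodes the cytosolic thioredoxin reductase, which uses NADPH to regenerate reduced thioredoxin. It had 53.5 and 58.8 scaled RPKM in male YAP and 49.1 and 51.7 in female YAP kidneys, against 26.0 and 31.2 in male Ctrl and 28.3 and 30.0 in female Ctrl kidneys. The lowest YAP library was well above the highest Ctrl library. The fold was 1.84, with an interval of 1.61 to 2.11 (log2 0.88, SE 0.09; limma, adjusted p = 0.000145). The difference passed within males (log2 0.98; limma, adjusted p = 0.00201) and within females (0.79; adjusted p = 0.0061). Txnrd1 (chr10:82833951-82897712, plus strand) was the only member that passed within each sex, beside 7.92% of all genes higher in males and 5.99% in females. Its RefSeq promoter window (RefSeq, GRCm38.p6, 250 bases before to 50 after an annotated start) at the start site at position 82859206 holds the antioxidant response element core TGACNNNGC on the opposite strand. The stretch is shown because it is the one Txnrd1 start of 3 with this motif, and capitals mark the match, which lies 92 bases before the start.
Txnrd1, chr10:82859094-82859142, plus strand: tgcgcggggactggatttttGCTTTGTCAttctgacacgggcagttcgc

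Srxn1 encodes sulfiredoxin, which repairs peroxiredoxins whose active cysteine has been over-oxidised. It had 13.7 and 21.3 scaled RPKM in male YAP and 19.4 and 13.3 in female YAP kidneys, against 11.1 and 12.3 in male Ctrl and 11.4 and 11.6 in female Ctrl kidneys. The groups did not overlap, but the YAP libraries spread 1.6-fold between lowest and highest, against 1.11-fold in Ctrl. The fold was 1.42, with an interval of 1.11 to 1.82 (log2 0.51, SE 0.16; limma, adjusted p = 0.0439). The call is near the threshold: it was lost in 6 of the 8 fits that left out 1 library (male YAP 2, female YAP 1, or any 1 of the 4 Ctrl libraries; limma, adjusted p up to 0.119), and kept within the replicate 1 libraries alone (log2 0.53; adjusted p = 0.0365) and the replicate 2 libraries alone (0.49; adjusted p = 0.0408). Srxn1 lies at chr2:152105516-152111376, plus strand. Its promoter window holds the sequence TGAGTCA, the AP-1 element, at 102 and 45 bases before the start, and the TGACNNNGC core 29 bases after it. The TGAGTCA nearer the start is followed by GC, so it differs from TGACNNNGC in 1 letter and was not counted as a match. The stretch with the TGAGTCA pair, in capitals, is given since no other member window held that motif.
Srxn1, chr2:152105402-152105505, plus strand: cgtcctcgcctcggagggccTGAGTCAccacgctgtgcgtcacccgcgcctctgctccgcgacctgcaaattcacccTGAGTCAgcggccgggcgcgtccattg

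Gclc and Gclm encode the catalytic and the modifier subunit of glutamate-cysteine ligase, the rate-limiting enzyme of glutathione synthesis. Gclc (chr9:77754535-77794485, plus strand) had 24.5 and 42.6 scaled RPKM in male YAP and 32.2 and 26.2 in female YAP kidneys, against 20.8 and 21.9 in male Ctrl and 21.5 and 21.1 in female Ctrl kidneys. Every YAP library was above every Ctrl library, with a spread of 1.74-fold among YAP and 1.05-fold among Ctrl libraries. The fold was 1.43, with an interval of 1.11 to 1.85 (log2 0.52, SE 0.16; limma, adjusted p = 0.0438). Without male YAP 2 alone the log2 difference was 0.34 (limma, adjusted p = 0.0464). The call was lost in 6 of the 8 fits that left out 1 library (female YAP 1, female YAP 2 or any 1 Ctrl library; limma, adjusted p up to 0.114), and in the replicate 1 libraries alone (log2 0.41; adjusted p = 0.0616), but not in the replicate 2 libraries alone (0.63; adjusted p = 0.0128).

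Gclm (chr3:122245557-122270732, plus strand) did not pass, and its groups overlapped. Its levels were 44.3 and 44.4 scaled RPKM in male YAP and 42.5 and 43.6 in female YAP kidneys, against 43.9 and 47.7 in male Ctrl and 43.2 and 39.1 in female Ctrl kidneys. The fold was 1.01, with an interval of 0.902 to 1.12 (limma, adjusted p = 0.94). Reads on 296 exon bases overlap Gm17494 on the opposite strand and 244 overlap the pseudogene Gm6061, so this level is uncertain there. The ratio of Gclc to Gclm in scaled RPKM was 0.552 and 0.959 in male YAP and 0.758 and 0.602 in female YAP kidneys, against 0.474 and 0.458 in male Ctrl and 0.499 and 0.541 in female Ctrl kidneys. All 4 YAP ratios were above all 4 Ctrl ratios (mean 0.718 ± 0.183 in YAP and 0.493 ± 0.0359 in Ctrl; two-sided p = 0.0286 by an exact permutation test, where 70 arrangements can give no smaller p). This ratio was chosen after the values were seen. Gclc alone already separated the genotypes and Gclm did not pass, so the p largely restates the Gclc difference. The exact p was 0.0571 or 0.0857 with any 1 Ctrl library left out and 0.0286 with any 1 YAP library left out. YAP ratios stayed above Ctrl ratios in every case. With unequal group sizes, the highest YAP ratios against the rest can differ more in mean than the true groups. The higher p therefore does not mark a dependence on 1 Ctrl library. The Gclm window holds the TGACNNNGC core on the opposite strand, 134 bases before the start. It is shown, motif in capitals, for contrast with Txnrd1, since a match occurs in this gene as well although its level did not pass.
Gclm, chr3:122245403-122245451, plus strand: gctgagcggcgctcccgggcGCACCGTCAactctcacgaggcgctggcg

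Promoter windows were found for 7 of the 10 genes, 9 windows in all, of which 3 were of Txnrd1. None was found for Hmox1, Gclc and Gsr, so of the 4 genes that rose only Txnrd1 and Srxn1 were searched. Txnrd1, Srxn1, Gclm and Nfe2l2 had a TGACNNNGC match in at least 1 window, 4 of 7 genes, beside 14.0% of 27025 genes with any window. TGAGTCA was in the window of 1 of 7 genes, beside 5.95% of all genes. Both motifs were searched on both strands; a match is only a run of letters and no binding was measured.

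**Figure D2:**
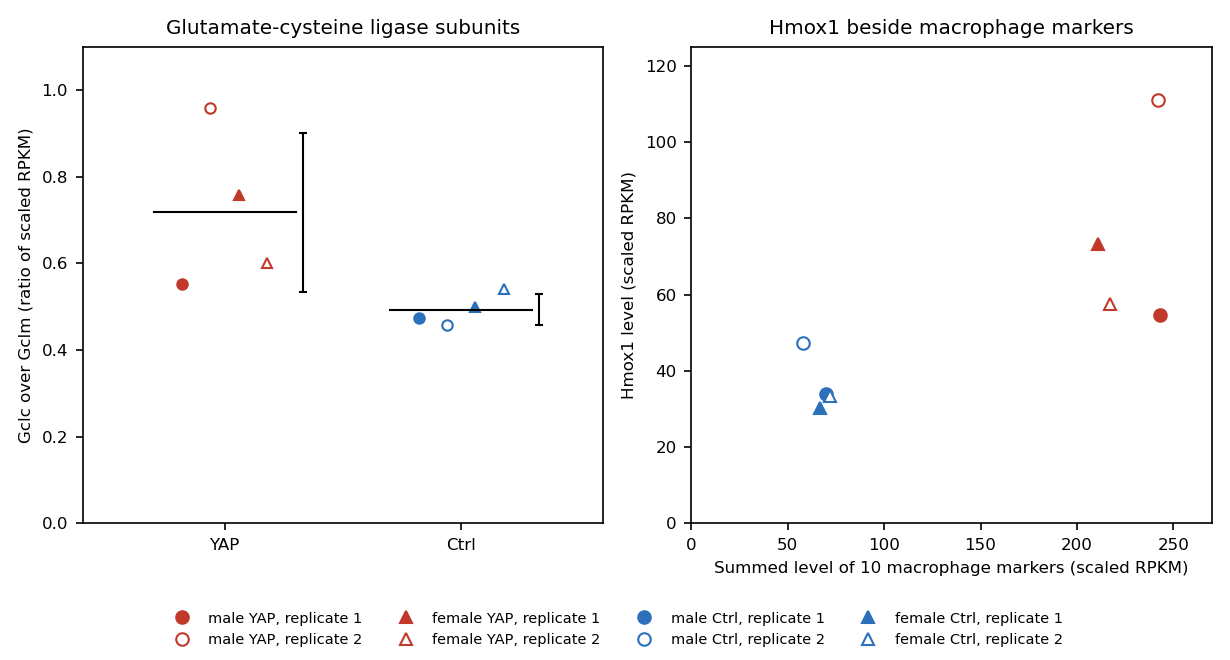
Left, the ratio of Gclc to Gclm (scaled RPKM over scaled RPKM) in every library, with the mean as a line and the SD over 4 libraries as an error bar; right, Hmox1 (y axis) against the summed level of the 10 macrophage markers (x axis), both in scaled RPKM, 1 point per library. All 4 YAP ratios lie above all 4 Ctrl ratios, and the YAP libraries are higher than the Ctrl libraries in both Hmox1 and the marker sum, of which C1qa, C1qb and C1qc are the largest part.

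Hmox1 encodes haem oxygenase 1, which opens haem to biliverdin, carbon monoxide and iron and is expressed by macrophages as well as by injured tubules. It had 54.6 and 111 scaled RPKM in male YAP and 73.3 and 57.6 in female YAP kidneys, against 33.8 and 47.3 in male Ctrl and 30.1 and 33.3 in female Ctrl kidneys. The groups did not overlap, and the fold was 2.00, with an interval of 1.42 to 2.81 (log2 1.00, SE 0.21; limma, adjusted p = 0.00947). Within males the adjusted p was 0.0915 (log2 0.96) and within females 0.0847 (log2 1.03) by limma, neither past the threshold. The replicate 1 libraries alone gave 0.99 (limma, adjusted p = 0.0092) and the replicate 2 libraries 1.01 (adjusted p = 3.93e-05). Hmox1 lies at chr8:75093621-75100589, plus strand. The macrophage markers, given above, rose in all 4 YAP libraries, and their part in the Hmox1 difference was not tested. The sum is made up largely of C1qa, C1qb and C1qc, and stood at 243 in male YAP 1 and 242 in male YAP 2. Mrc1, in the same list, was at 6.19 scaled RPKM in male YAP 1 and 9.66 in male YAP 2, and Cd163, the macrophage haemoglobin receptor, at 0.984 and 3.16. Both of these genes, picked after their values were seen, were highest in male YAP 2, as Hmox1 was. Of the rest of the marker list, Csf1r, C1qb and C1qc were also highest in male YAP 2. C1qa was highest in male YAP 1, and Adgre1, Cd68, Fcgr1, Cd14 and Cx3cr1 in female YAP 2. Hmox1, Gclc and Srxn1 were all highest in male YAP 2 and next in female YAP 1. Txnrd1, Gclm and Nfe2l2 were highest in male YAP 2 too, so this rank is not particular to macrophage genes. Among the tubular injury markers, Havcr1, Krt8, Krt20, Spp1 and Plaur were highest in male YAP 2. Lcn2, Krt18 and Clu were highest in male YAP 1, Vcam1 was highest in female YAP 2, and Sox9 was not highest in male YAP 2. The part of the injury markers in the Hmox1 difference was not tested either.

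Nqo1, Slc7a11 and Gsr did not pass. Nqo1, a quinone reductase and a widely used NRF2 marker, had 13.2 and 13.0 scaled RPKM in male YAP and 14.3 and 10.4 in female YAP kidneys, against 11.7 and 9.64 in male Ctrl and 11.4 and 9.51 in female Ctrl kidneys. Only female YAP 2 overlapped the Ctrl libraries, and the fold was 1.20, with an interval of 0.991 to 1.44 (limma, adjusted p = 0.154). Within each depth class both YAP libraries were above both Ctrl libraries, with log2 differences of 0.24 in replicate 1 and 0.27 in replicate 2. In an alternative fit with replicate number as a block, Nqo1 passed (log2 0.26, limma, adjusted p = 0.0431), so its call depends on that choice. Nqo1 lies at chr8:107388225-107403206, minus strand. Slc7a11, the cystine carrier that feeds glutathione synthesis, was the least abundant, at 0.508 and 0.424 in male YAP and 0.49 and 0.331 in female YAP, against 0.299 and 0.319 in male Ctrl and 0.223 and 0.40 in female Ctrl kidneys. It rested on as few as 73 reads in a library, and at this level the pseudocount of 0.1 lowers its fold. The log2 difference was 0.40 in the main fit, 0.50 with a pseudocount of 0.01 and 0.13 with 1, none past the threshold. With voom it was 0.66 and passed (adjusted p = 0.0282). The fold was 1.32, with an interval of 0.995 to 1.74 (limma, adjusted p = 0.142); the replicate 1 libraries gave log2 0.74 (limma, adjusted p = 0.032) and the replicate 2 libraries 0.05 (adjusted p = 0.935). Slc7a11 lies at chr3:49892526-50443614, minus strand. Gsr, the reductase that recycles oxidised glutathione (chr8:33652523-33698163, plus strand), had 35.8 and 36.5 scaled RPKM in male YAP and 37.0 and 30.0 in female YAP kidneys, against 36.2 and 39.9 in male Ctrl and 36.9 and 40.1 in female Ctrl kidneys. The groups overlapped, with a fold of 0.909 and an interval of 0.791 to 1.04 (limma, adjusted p = 0.30).

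**Figure D3:**
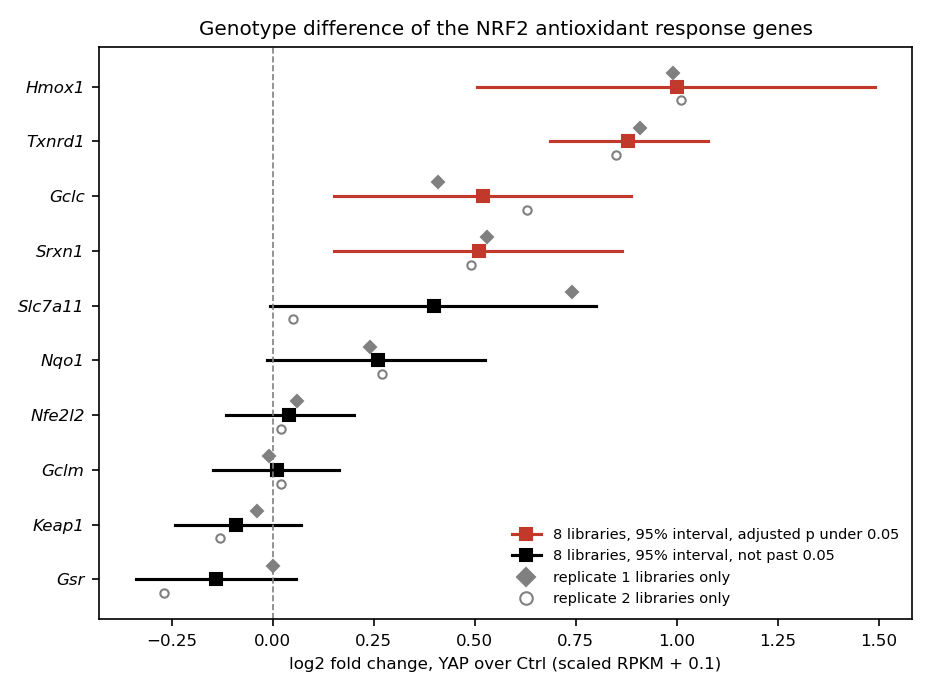
Log2 difference of each gene, YAP over Ctrl, on the scale of log2(scaled RPKM + 0.1), with the 95% interval over 8 libraries and the values within the replicate 1 and the replicate 2 libraries as separate symbols. Txnrd1 and Hmox1 are the farthest to the right, Gclm and Nfe2l2 stand near 0, and Slc7a11 has the widest gap between the depth classes.

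Within the replicate 1 libraries 4 of the 10 genes rose (Txnrd1, Hmox1, Srxn1 and Slc7a11), beside 9.38% of all genes tested there, and within the replicate 2 libraries 4 rose (Txnrd1, Hmox1, Srxn1 and Gclc), beside 9.62%. These calls lean on variance shared across genes, as stated above. No difference between the sexes in the effect of genotype passed for any gene tested, as 0 of 18059 interaction terms were called by limma (538 at an unadjusted p under 0.05) and 0 by voom (564). Among the 10 genes the lowest unadjusted interaction p was 0.305 (limma). Levels per length in Ctrl kidneys fell in the order Gclm 43.5, Gsr 38.2, Hmox1 36.1, Txnrd1 28.9, Nfe2l2 24.8, Gclc 21.3, Keap1 15.9, Srxn1 11.6, Nqo1 10.6 and Slc7a11 0.31 scaled RPKM, and the ranges of neighbours overlapped down to Txnrd1 and between Srxn1 and Nqo1.

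Of 14 regulators and partners of NRF2, 4 rose, 0 fell and 10 did not pass (median log2 0.08). Among all genes tested 13.2% were higher and 13.0% lower in YAP. Counted in either direction, the list's share called is close to the 26.2% of all genes tested. Maff, a small MAF protein, averaged 27.2 ± 4.31 scaled RPKM in YAP and 2.80 ± 0.344 in Ctrl kidneys, a 9.36-fold rise (limma, adjusted p = 7.9e-07). Mafk, another small MAF, rose 1.76-fold, at 8.71 ± 0.956 in YAP and 4.88 ± 0.154 in Ctrl kidneys (limma, adjusted p = 0.000332). Small MAF proteins pair with NRF2 and also with BACH1, the repressor of Hmox1, and have no activation domain of their own. Sqstm1, the autophagy receptor p62 that binds KEAP1, rose 1.41-fold (218 ± 29.6 in YAP and 154 ± 3.75 in Ctrl; limma, adjusted p = 0.00994), and Nfe2l3, a relative of NRF2, rose 1.41-fold (4.58 ± 0.447 in YAP and 3.25 ± 0.551 in Ctrl; adjusted p = 0.0267). Bach1 had a log2 difference of 0.22 (limma, adjusted p = 0.206), Mafg -0.05 (0.753) and Cul3, the ligase scaffold, 0.08 (0.476).

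Other known NRF2 targets moved in both directions: of 28 tested, 6 rose, 7 fell and 15 did not pass, with a median log2 difference of 0.08. Among all genes tested 13.2% were higher and 13.0% lower in YAP. Among those that rose were Prdx6, a peroxiredoxin (1.52-fold, 91.8 ± 6.05 in YAP and 60.5 ± 3.78 in Ctrl; limma, adjusted p = 0.000942), the efflux pump gene Abcc4 (1.92-fold), Ugdh (1.40-fold) and the aldo-keto reductase gene Akr1b8 (1.53-fold). Among those that fell were the glutathione transferase genes Gsta1, at 0.942 ± 0.404 in YAP and 4.77 ± 1.33 in Ctrl kidneys (4.80-fold lower; limma, adjusted p = 0.00102), and Gsta2, at 24.0 ± 5.53 in YAP and 103 ± 53.2 in Ctrl kidneys (3.94-fold lower). These near-identical copies can share reads, so their split is uncertain. Ftl1, the ferritin light chain, which also has near-identical copies, fell 1.45-fold and Taldo1, transaldolase, 1.30-fold. The proximal tubule markers given above fell in the same libraries, and their part in these falls was not tested.

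Of 12 genes of glutathione synthesis and turnover, 2 rose, 7 fell and 3 did not pass (median log2 -0.58), beside 13.2% of all genes higher and 13.0% lower. Chac1, which degrades glutathione, rose 5.98-fold, at 3.19 ± 1.13 in YAP and 0.429 ± 0.0322 in Ctrl kidneys (limma, adjusted p = 7.03e-05), and Oplah, which recycles oxoproline, rose 1.94-fold. Genes that fell included Dpep1 (4.88-fold lower, 12.9 in YAP and 62.0 in Ctrl), Cth, the cystathionine lyase that makes cysteine (2.62-fold lower), Ggct (1.80-fold lower) and Ggt1 (1.58-fold lower). Dpep1 and Ggt1 encode brush-border enzymes of the proximal tubule, whose markers fell in the same libraries. Of 16 other antioxidant enzymes, 1 rose, Txnrd3 (1.25-fold), and 6 fell (median -0.30), including Sod2 (1.66-fold lower), Sod3 (1.81-fold lower), Msra (1.66-fold lower) and Prdx3 (1.26-fold lower).

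Of 11 genes of the response to ATF4, the stress transcription factor that also controls Slc7a11, with Atf4 itself counted among them, 6 rose, 0 fell and 5 did not pass (median log2 0.63). Among all genes tested 13.2% were higher and 13.0% lower in YAP. Trib3 rose 7.26-fold (4.35 in YAP and 0.49 in Ctrl), Asns, asparagine synthetase, 3.32-fold and Psat1, of serine synthesis, 1.71-fold, and Chac1 belongs to this list too. Of 6 subunits of the superoxide-making NADPH oxidases, 3 rose, 2 fell and 1 did not pass (median log2 0.45), beside the same shares of all genes. Those that rose, Ncf4 (4.41-fold), Ncf1 (3.10-fold) and Cybb (2.16-fold), belong to the phagocyte oxidase. The macrophage markers rose in the same libraries, and their part was not tested. Cyba, which is also a subunit of the phagocyte oxidase, fell 1.39-fold (limma, adjusted p = 0.038). Nox4, the oxidase of tubules, fell 1.34-fold (limma, adjusted p = 0.041). Of 12 haem and iron genes tested, 4 passed, near the 26.2% of all genes. Mfsd7b, the older symbol of the haem exporter gene Flvcr1, rose 1.69-fold (4.48 ± 0.667 in YAP and 2.59 ± 0.132 in Ctrl kidneys; limma, adjusted p = 0.000948), and Cd163 rose 2.83-fold (1.64 ± 1.05 in YAP and 0.453 ± 0.119 in Ctrl kidneys; limma, adjusted p = 0.0153). Those that fell were Ftl1, given above, and the haem transporter gene Slc48a1 (1.32-fold lower; limma, adjusted p = 0.00891), and the list's median log2 difference was -0.10. Of 6 red cell markers tested, 1 fell and none rose, with sums of 1008 to 1366 in YAP and 1113 to 1986 in Ctrl libraries.

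**Figure D4:**
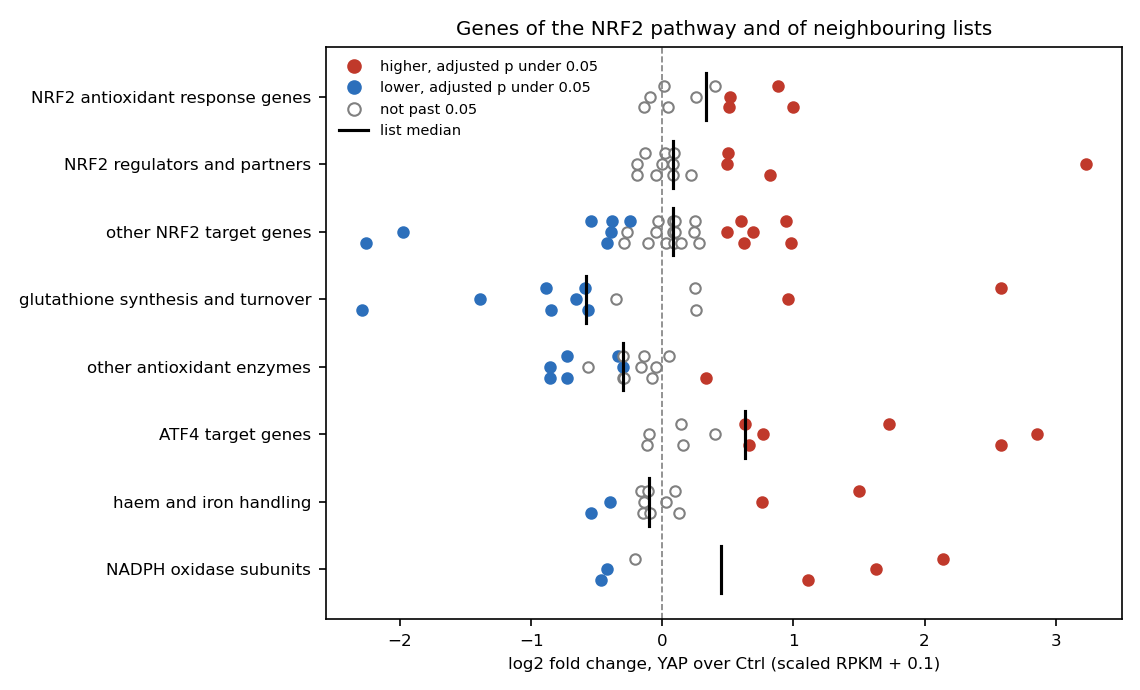
Log2 difference, YAP over Ctrl, of every tested gene in 8 lists, on the scale of log2(scaled RPKM + 0.1); filled points passed an adjusted p of 0.05 as higher (red) or lower (blue), open points did not, and bars are list medians. Glutathione turnover lies mostly left of 0, at a median of -0.58, and the ATF4 list mostly to the right, at 0.63.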

How the data were processed

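The authors deposited 1 table of RPKM for 35976 gene symbols in 8 libraries, with a gene length column in bases. STAR, featureCounts and mm10 appear in the submitters' processing notes; versions, annotation release, strand setting and handling of multiply mapped reads were not found there. Per the labels' protocols, poly(A) RNA of whole kidneys was fragmented before cDNA synthesis. RPKM multiplied by length gave whole reads for all 179720 nonzero values (tolerance 0.01; largest deviation 1.3e-09). These recovered reads set the totals (96.7% to 97.1% in listed genes), the filter (0.2 reads per 1e6 reached in no fewer than 2 libraries, with 15 reads summed over the 8) and trimmed-mean-of-M-values factors (own implementation, trims 0.3 and 0.05), which ranged from 0.969 to 1.03. Log2(RPKM divided by the factor, plus 0.1) was the response in a limma fit (limma 3.58.1, R 4.3.3; moderated variances with trend and robust options) on genotype and sex, with Benjamini-Hochberg adjustment over 18059 genes and a threshold of 0.05. The pseudocount understates changes of low genes. Within-sex values and the interaction used 1 mean per sex and genotype. Depth-class values came from fits on 4 libraries with 1 residual degree of freedom. The fit was also run on simulated counts with the same dispersion for every gene, few changed genes and no difference between depth classes. That run does not check the fit under the spread of these libraries. Alternatives were pseudocounts of 0.01 and 1, no filter, median-of-ratios scaling, RPKM as deposited, genotype alone, voom on the recovered reads, the replicate block, each depth class and leaving out each library.

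The 10 genes and the lists were chosen with earlier results of these data known. All 10 are named; of other lists, up to 4 genes with the lowest p were named among those that rose and 4 among those that fell, and Bach1, Mafg and Cul3 were added after their values were seen. Flvcr1 was matched as Mfsd7b through the RefSeq synonyms (GRCm38.p6), Ahsp is not analysed here, and Gstm3, Gpx2, Duox1 and Duox2 were below the filter. A result on 1 item of a neighbouring list is not reported here. Counts of same-group libraries were farther apart than sampling noise alone gives, with chi-square values of 22.6 to 51.2 per degree of freedom; as separate animals are not stated, p-values and intervals describe only how these libraries vary, which may be technical.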

Additional observations from a re-analysis of the deposited data

Results flagged for a closer look

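Gsr in female YAP replicate 2, at 30.0 scaled RPKM, lay apart from the other YAP libraries: its gap to the next value was 0.832 of the group's range, just past Dixon's 95% critical value for 4 libraries. Of 20 groups of 4 libraries examined, 1 was marked, and chance marks about 1 in 20.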

How the results depend on the processing

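Across 18 alternatives, 157 of 180 values of the 10 genes kept their direction and their side of the threshold, 15 lost the call, 4 gained it and 4 changed sign. The number of genes that rose was 4 and became 2 with no filter on low values and 2 to 4 when 1 library was left out (2 without female YAP 1, male Ctrl 1, male Ctrl 2 or female Ctrl 1), because Gclc and Srxn1 lost their calls; with no filter more genes are tested, and limma gave adjusted p = 0.0795 for Gclc and 0.0799 for Srxn1. Txnrd1 (limma, adjusted p up to 0.00115) and Hmox1 (up to 0.0323) kept the call whichever library was left out. Slc7a11 passed with voom (log2 0.66; adjusted p = 0.0282) and without female Ctrl 2 (0.54; limma, adjusted p = 0.0455). Gclm changed sign within replicate 1 libraries (-0.01) and with 1 library left out (-0.03 to 0.05). Called genes among other NRF2 targets numbered 7 in replicate 1 libraries against 13, haem and iron genes 2 against 4, and other antioxidant enzymes 4 in replicate 2 libraries against 7. NADPH oxidase subunits numbered 3 with no filter and in replicate 2 libraries against 5, and 3 to 5 with 1 library left out (3 without male YAP 1, male YAP 2, male Ctrl 1, male Ctrl 2 or female Ctrl 1); the cause was not tested. The Gclc to Gclm ratio, 1.46-fold higher in YAP on average, was 1.29 to 1.57-fold when 1 library was left out. The exact permutation test gave p = 0.0571 or 0.0857 without 1 Ctrl library and 0.0286 without 1 YAP library. YAP ratios lay above Ctrl ratios in every such set, and the higher p goes with the unequal group sizes, as given above.

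Same-numbered libraries deviated together in some pairs of groups and not in others (correlations 0 to 0.378 over 6 pairs). Replicate number also marks the depth class. The main fit did not use it, a choice that these correlations do not settle. With a replicate block, Nqo1 passed (log2 0.26; limma, adjusted p = 0.0431), making 5 of the 10, and other antioxidant enzymes numbered 11. Slc7a11 rested on 73 to 96 reads in each replicate 2 library; the cause of its difference between depth classes was not tested.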
